A study of Mus musculus with 24 samples.

Results

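The comparison described here is the last step of an osteoclast culture, day 4 against day 3 of RANKL, in cells from mice labelled STING-deficient. Its members are the libraries labelled STING-deficient (KO) at those days, 6 of the 24 in the series: 3 from day 4 and 3 from day 3, 1 at each day from each of mice 481, 528 and 532. The labels describe bone marrow from female mice of 10 to 12 weeks, grown in 40 ng/mL mCSF for 72 hours. These cells were plated again at 25000 per well with 20 ng/mL mCSF and 10 ng/mL RANKL, and the wells of a triplicate made up 1 library. WT cultures (mice 480, 529 and 531) had the same cytokines and mice of the same age. The day 0 libraries, used below as levels only, came from precursors in 40 ng/mL mCSF without RANKL, with no plating density given. A difference from day 0 therefore spans RANKL, the lower mCSF of 20 ng/mL and the second plating, which cannot be told apart. The allele that removes STING is not named. The comparison asks which genes move as KO cultures go through their final day, and whether that step differs in WT cultures. Part of the medium was renewed on day 2, and there was no culture without RANKL on days 3 and 4, so a further day of RANKL, a further day in culture and a further day since the medium was renewed cannot be told apart. Of the 10721 genes in the table, 9457 had a mean of at least 1 FPKM, a fragment count scaled to transcript length and library size, in at least 1 of the KO groups and were tested.

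Osteoclasts form when RANKL and mCSF act on macrophage-lineage precursors: RANK signals through TRAF6 and NF-kB, the transcription factor NFATc1 is induced and amplifies itself, the precursors fuse, and the fused cell attaches to bone, secretes acid through a proton pump and digests collagen with cathepsin K. STING is an adaptor of the endoplasmic reticulum that receives cyclic GMP-AMP made by cGAS on cytosolic DNA and drives type I interferon through TBK1 and IRF3. In osteoclast precursors interferon beta is known as a brake on RANKL-driven differentiation, which is why interferon-stimulated genes are followed here beside osteoclast genes.

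Each mouse was its own control: differences are day 4 minus day 3 within a mouse on the log2(FPKM + 1) scale, so values are understated for low genes, and the test was limma with mouse as a block (n = 3 mice on each day throughout) and Benjamini-Hochberg adjustment over the 9457 genes. At an adjusted p under 0.05, 2432 genes rose (25.7%) and 2406 fell (25.4%), 51.2% of those tested. In 4653 genes (49.2%) the day 4 and day 3 libraries did not overlap. A gene with a mean of at least 1 FPKM on 1 day alone was kept because that day was higher. The direction of such a gene was thus set by the filter. Most changes were small: the median size among the called genes was 0.30, and 1757 of them (36.3%) changed by less than 0.25. With at least 0.5 added to the rule, 558 genes rose (5.90%) and 257 fell (2.72%). About as many genes were called in either direction, so a list of genes is read here against 25.7% rising and 25.4% falling, and against a median change of -0.00 over all genes tested. A limma fit of all 24 libraries, which estimates the spread over days 0 and 2 and WT mice as well, called 2498 genes, 1295 higher and 1203 lower. Where that fit, a fit without the mouse block, without the mean-variance trend or without 1 mouse moved the count of a list by over 1.5 times, the count it gave stands in brackets.

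The libraries of the 2 days were alike in scale. Summed FPKM ran from 523729 to 528447 on day 4 and from 492243 to 530196 on day 3, and the median tested gene stood at 13.5 to 13.6 FPKM and 13.3 to 13.4 FPKM. Fragment totals are unknown in FPKM; from the steps between low values, the FPKM worth of 1 fragment was 0.966 to 1.01 on day 4 and 0.877 to 0.914 on day 3, relative to the day 4 library of mouse 481. A smaller worth means more fragments, so the day 3 libraries were slightly deeper. The transcript of STING itself, listed as Tmem173, was still measured in KO libraries, at 2.65, 2.86 and 2.85 FPKM on day 4, against 3.76, 3.79 and 3.19 FPKM on day 3. Every mouse was lower on day 4, a change of -0.27 ± 0.08 (SE, limma adjusted p = 0.018). WT libraries had 3.38, 4.93 and 5.01 FPKM on day 4 and 4.03, 4.69 and 4.58 FPKM on day 3. Because the allele is not given, a transcript level neither checks nor contradicts the label. Tmem173 did not pass in the fit of all libraries or without mouse 481 or 528 (limma adjusted p = 0.065 to 0.11).

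The cultures carried osteoclast and macrophage transcripts and few of other lineages. The 10 osteoclast markers summed to 45457 to 50104 FPKM on day 4 and 25893 to 28189 FPKM on day 3, and the 32 macrophage markers in the table to 10642 to 11895 FPKM and 5993 to 6766 FPKM. Neutrophil markers summed to 140, 131 and 126 FPKM on day 4, against 174, 106 and 108 FPKM on day 3, lower on day 4 in mouse 481 and higher in mice 528 and 532. B cell, T and NK cell and mast cell markers each stayed at or under 1.05 FPKM in every library. Erythroid and megakaryocyte markers summed to 22.9 to 41.5 FPKM on day 4 and 11.4 to 23.7 FPKM on day 3, nearly all of it Pf4. Stromal and osteoblast markers summed to 0.485 to 4.26 FPKM on day 4 and 1.71 to 5.45 FPKM on day 3. These are bulk libraries, in which fewer cells of a type and less RNA per cell cannot be told apart.

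**Figure D1:**
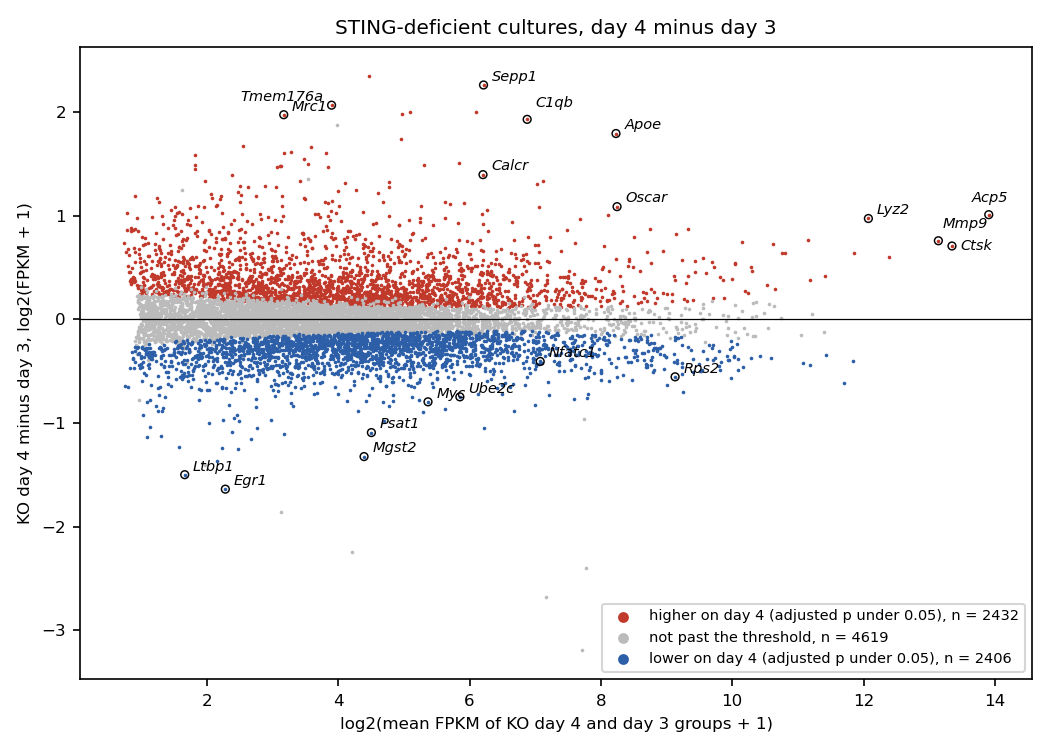
Each point is 1 of the genes tested, with its mean level in the KO day 4 and day 3 groups on the x axis as log2(FPKM + 1) and the paired change, day 4 minus day 3, on the y axis as log2(FPKM + 1). Red and blue genes passed an adjusted p of 0.05 (2432 higher, 2406 lower on day 4); macrophage genes such as Apoe lie at the top, Acp5, Mmp9 and Ctsk at the far right, and Ltbp1 and Egr1 at the bottom. Mir221, listed at 0 in every KO day 3 library, is off the axis.

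Genes of the osteoclast's resorbing equipment rose on the final day. The transcription factor gene Nfatc1 and the fusion gene Ocstamp fell, while another fusion gene, Dcstamp, rose slightly. Of 26 tested osteoclast effector genes, 21 rose (11 in the fit of all libraries, 13 without mouse 481) and 1 fell (0 to 1 in the other fits), with a median change of 0.43. Calcr, the calcitonin receptor, stood at 91.6, 108 and 117 FPKM on day 4, against 32.8, 39.5 and 47.02 FPKM on day 3. The lowest day 4 library stood well above the highest day 3 library, a change of 1.39 ± 0.05 (SE, limma adjusted p = 5.6e-07). Oscar, a collagen-binding receptor that signals through the Fc receptor gamma chain, stood at 354, 402 and 479 FPKM on day 4, against 168, 189 and 224 FPKM on day 3, again with no overlap, a change of 1.09 ± 0.04 (SE, limma adjusted p = 1.9e-06). Itgb3, the beta 3 chain of the vitronectin receptor, was at 272, 229 and 226 FPKM on day 4, against 145, 138 and 152 FPKM on day 3. Itgb3 rose by 0.74 ± 0.06 (SE, limma adjusted p = 5.0e-05).

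The most abundant osteoclast transcripts were among the genes that rose. Acp5, the tartrate-resistant acid phosphatase by which osteoclasts are stained, was at 18998, 20914 and 21624 FPKM on day 4, against 9607, 10725 and 10231 FPKM on day 3. Ctsk, the collagen-degrading cathepsin, was at 12844, 12606 and 13288 FPKM on day 4, against 7791, 7951 and 7983 FPKM on day 3, and Mmp9, a gelatinase, was at 10945, 11010.3 and 12026 FPKM on day 4, against 6255, 6526 and 7347 FPKM on day 3. All 3 were higher on day 4 in every mouse without overlap, and together they took 8.17% to 8.88% of summed FPKM on day 4 and 4.75% to 5.19% on day 3. Changes were 1.01 ± 0.14 (SE, limma adjusted p = 0.00058) for Acp5, 0.71 ± 0.12 (limma adjusted p = 0.0018) for Ctsk and 0.76 ± 0.12 (limma adjusted p = 0.00097) for Mmp9. Acp5 and Mmp9 did not pass without mouse 481 (limma adjusted p = 0.072 to 0.092). Ctsk did not pass in the fit of all libraries or without mouse 481 or 532 (limma adjusted p = 0.051 to 0.12).

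Of the other osteoclast markers, the fusion receptors parted. Dcstamp, needed for precursors to fuse, was at 482, 499 and 494 FPKM on day 4, against 405, 459.7 and 418 FPKM on day 3. Dcstamp rose by 0.20 ± 0.05 (SE, limma adjusted p = 0.012). Ocstamp, its partner in fusion, was at 187, 206 and 211 FPKM on day 4, against 251, 246 and 259 FPKM on day 3, a change of -0.33 ± 0.05 (SE, limma adjusted p = 0.00087). Dcstamp was thus slightly higher and Ocstamp lower on day 4, in all 3 mice each. Atp6v0d2, a proton pump subunit that also takes part in fusion, was at 1171, 1338 and 1512 FPKM on day 4, against 1085, 1153 and 1356 FPKM on day 3 with overlapping groups, and its change of 0.16 ± 0.06 (SE, limma adjusted p = 0.064) did not pass. It did without the trend or without mouse 528 (limma adjusted p = 0.025 to 0.036). Nfatc1, the leading transcription factor of the lineage, was lower on day 4 in every mouse, at 111, 107 and 126 FPKM on day 4, against 153, 134 and 172 FPKM on day 3. Nfatc1 fell by 0.41 ± 0.05 (SE, limma adjusted p = 0.00020). Dcstamp did not pass in the fit of all libraries or without mouse 481 or 532 (limma adjusted p = 0.090 to 0.43). Ocstamp did not pass in the fit of all libraries (limma adjusted p = 0.23).

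**Figure D2:**
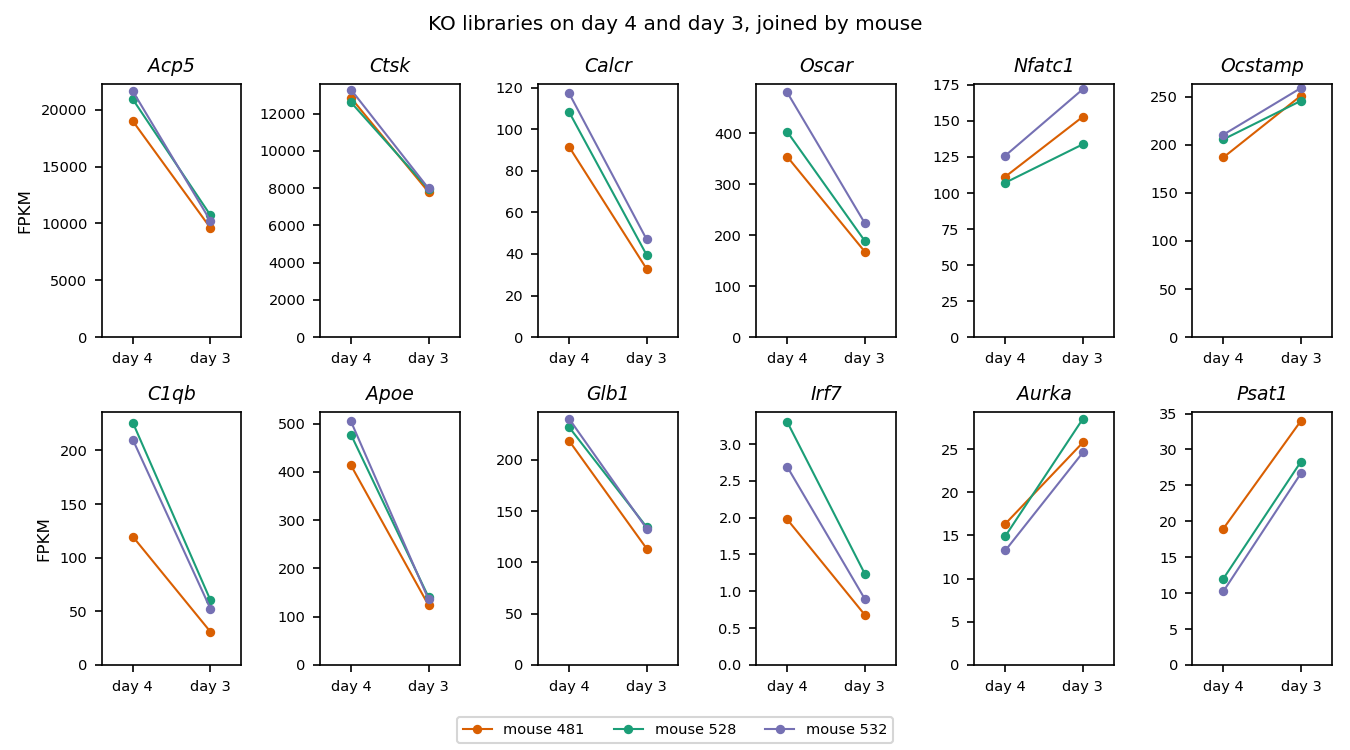
FPKM of 12 genes in the KO libraries, day 4 on the left and day 3 on the right of each panel, with the libraries of each mouse joined by a line and every y axis starting at 0. Acp5, Ctsk, Calcr, Oscar, C1qb, Apoe, Glb1 and Irf7 are higher on day 4 in all 3 mice, and Nfatc1, Ocstamp, Aurka and Psat1 are lower on day 4 in all 3.

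Fusion genes as a list moved both ways: of 22, 8 rose (4 in the fit of all libraries) and 6 fell (3 in the fit of all libraries), around a median of 0.05. Pkn3, a protein kinase C-related kinase, was at 21.4, 20.02 and 19.9 FPKM on day 4, against 35.1, 35.5 and 33.2 FPKM on day 3, a fall in each mouse and a change of -0.73 ± 0.05 (SE, limma adjusted p = 1.2e-05). Kcnn4, a calcium-activated potassium channel, was at 79.7, 74.8 and 64.4 FPKM on day 4, against 120.4, 116 and 99.3 FPKM on day 3. Kcnn4 fell by 0.61 ± 0.04 (SE, limma adjusted p = 1.5e-05). On the other side, the tetraspanin Tspan7 was at 153, 150.3 and 168 FPKM on day 4, against 87.8, 97.99 and 101 FPKM on day 3, a change of 0.71 ± 0.05 (SE, limma adjusted p = 1.7e-05). Cell surface genes that macrophages also use were among the risers, the tetraspanin Cd81 (0.77), the scavenger receptor Cd36 (0.78) and the immune receptor Trem2 (0.59). Cd36 did not pass in the fit of all libraries (limma adjusted p = 0.67).

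Genes for attachment moved both ways, in shares close to those of all genes tested. Of 26 integrin and podosome genes, 7 rose (4 in the fit of all libraries) and 7 fell (3 without the block, 3 in the fit of all libraries, 4 without mouse 481). Together 53.8% were called, against 51.2% of all genes tested, and the median change was -0.03. Spp1, which encodes the matrix ligand osteopontin, was at 1682, 2153 and 2059.9 FPKM on day 4, against 1044, 1315 and 1192 FPKM on day 3. Spp1 rose by 0.73 ± 0.07 (SE, limma adjusted p = 7.3e-05). Itgb5, another integrin beta chain, rose by 0.61 ± 0.05 (SE), and Ptk2b, the kinase Pyk2 of the sealing zone, by 0.31 ± 0.05. Among the members that fell were the cortactin gene Cttn (-0.33), the kindlin Fermt3 (-0.24) and Was (-0.15), the Wiskott-Aldrich syndrome protein. Src, whose loss leaves osteoclasts without a ruffled border, had overlapping groups and a change of 0.04 ± 0.04 that did not pass. Gsn, which encodes gelsolin, and Actr3, an actin nucleator that every cell uses, were listed at 0 in some libraries (Gsn at 0, 296 and 0 FPKM on day 4, against 0, 487 and 464 FPKM on day 3, Actr3 at 0, 0 and 295 FPKM on day 4, against 274, 0 and 283 FPKM on day 3), so an exact 0 in these data is not read as absence. Spp1 did not pass in the fit of all libraries (limma adjusted p = 0.058). Cttn did not pass without the block (limma adjusted p = 0.051). Was did not pass without the block, in the fit of all libraries or without mouse 481 or 532 (limma adjusted p = 0.064 to 0.44).

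Genes of the co-stimulatory calcium signal and related immune receptors rose more often than they fell. Of 21 tested genes of the ITAM group, which pairs immune receptors with the adaptors DAP12 and the Fc receptor gamma chain, 12 rose (7 in the fit of all libraries) and 3 fell (1 in the fit of all libraries). The median change was 0.14. Fcgr3, a low-affinity IgG receptor, was at 55.8, 60.01 and 56.3 FPKM on day 4, against 17.4, 21.3 and 20.8 FPKM on day 3, which is 1.49 ± 0.05 (SE, limma adjusted p = 9.4e-07) on the log2 scale. The adaptors themselves, Tyrobp (0.64) for DAP12 and Fcer1g (0.44), rose, as did the inhibitory receptors Lilrb3 (0.51) and Lilrb4 (0.58), whose reads may be shared with related genes of the family. Downstream, the kinase Syk (0.13) rose slightly, by 0.08 without mouse 528, and Btk (-0.25) fell. Lilrb3 did not pass in the fit of all libraries (limma adjusted p = 0.067). Syk did not pass without the block, in the fit of all libraries, without the trend or without mouse 481, 528 or 532 (limma adjusted p = 0.061 to 0.92).

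Genes of RANK signalling showed no common direction. Of 26 genes of the RANK, TRAF and NF-kB list, 8 rose (0 in the fit of all libraries, 5 without mouse 481, 5 without mouse 532) and 4 fell (1 in the fit of all libraries). Tnfrsf11a, RANK itself, was at 46.2, 43.5 and 46.6 FPKM on day 4, against 46.7, 40.4 and 47.4 FPKM on day 3, with overlapping groups and a change of 0.02 ± 0.04 (SE, limma adjusted p = 0.70) that did not pass. Tnfrsf1b, the second TNF receptor, was at 37.6, 34.1 and 34.5 FPKM on day 4, against 23.3, 22.5 and 23.1 FPKM on day 3. Tnfrsf1b rose by 0.60 ± 0.05 (SE, limma adjusted p = 2.9e-05). The mCSF receptor Csf1r was at 688, 701 and 731 FPKM on day 4, against 535, 544 and 580.4 FPKM on day 3, a change of 0.35 ± 0.05 (SE, limma adjusted p = 0.00075), and the adaptor Traf1 (-0.33) fell. Tnfrsf1b, Csf1r and Traf1 did not pass in the fit of all libraries (limma adjusted p = 0.055 to 0.15).

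Transcription factors of the osteoclast programme moved both ways, in shares near those of all genes tested. Of 28 tested, 8 rose (1 in the fit of all libraries) and 8 fell (5 in the fit of all libraries). Together 57.1% were called, against 51.2% of all genes tested. With a change of at least 0.5 added to the rule, 0 rose and 3 fell. Beside Nfatc1, Myc was lower on day 4, at 29.2, 28.3 and 29.96 FPKM on day 4, against 52.98, 49.1 and 52.1 FPKM on day 3, a change of -0.80 ± 0.04 (SE, limma adjusted p = 5.9e-06). Mitf, which drives osteoclast genes with PU.1, was at 15.3, 16.1 and 15.5 FPKM on day 4, against 27.02, 24.9 and 27.7 FPKM on day 3. Mitf fell by 0.73 ± 0.05 (SE, limma adjusted p = 2.8e-05). Both were lower in every mouse with no overlap. Fos, the AP-1 partner of NFATc1, was at 93.96, 87.1 and 86.2 FPKM on day 4, against 231, 133 and 130.1 FPKM on day 3, and the change was -0.83 ± 0.12 (SE, limma adjusted p = 0.00071). Its day 3 value in mouse 481 stood well above those of mice 528 and 532. The factors Prdm1 (-0.05) and Sfpi1 (0.01), which encodes PU.1, did not pass.

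The genes known to hold osteoclast formation back rose on the same day. Of 17 repressor genes, 13 rose (8 in the fit of all libraries) and 1 fell (0 to 1 in the other fits), with a median of 0.30. Maf, a macrophage transcription factor, was at 15.4, 17.6 and 18.8 FPKM on day 4, against 3.73, 5.37 and 5.34 FPKM on day 3. Maf rose by 1.66 ± 0.06 (SE, limma adjusted p = 1.2e-06). Irf8, which restrains NFATc1 and guides macrophage fate, was at 6.25, 7.13 and 6.99 FPKM on day 4, against 1.99, 3.01 and 2.72 FPKM on day 3, a change of 1.13 ± 0.07 (SE, limma adjusted p = 1.3e-05). Neither had overlapping groups. The inhibitors of DNA binding Id3 (0.92) and Id2 (0.77) and the myeloid factor Cebpa (0.85) also rose. Their levels stayed below those before RANKL: 11 of the 17 had their lowest KO mean on day 3, and 15 were lower on day 4 than on day 0.

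Macrophage genes rose without exception among those tested. Of 34 listed genes 29 were high enough to test and all 29 rose, with a median of 1.01. The medians within mice 481, 528 and 532 were 1.06, 1.03 and 0.94. Of the 32 members in the table, 3 had a mean under 1 FPKM on day 4 and 7 on day 3. Members that passed the filter through day 4 alone could enter only as higher on day 4. C1qb, a chain of the first complement component, was at 119.6, 226 and 210.0 FPKM on day 4, against 30.9, 60.4 and 52.4 FPKM on day 3. Its sister chains moved with it, C1qc at 71.1, 135 and 122 FPKM on day 4, against 19.2, 33.1 and 26.3 FPKM on day 3, and C1qa at 30.4, 70.7 and 59.8 FPKM on day 4, against 7.96, 16.7 and 12.5 FPKM on day 3. Each day 4 library exceeded every day 3 library, although mouse 481 was the lowest of the 3 on both days, and the changes were 1.93 ± 0.04 (SE, limma adjusted p = 1.7e-07) for C1qb, 2.00 ± 0.06 for C1qc and 2.00 ± 0.07 for C1qa. Apoe, the lipid carrier of macrophages, was at 414, 477 and 504 FPKM on day 4, against 124, 141 and 136 FPKM on day 3, a change of 1.79 ± 0.05 (SE, limma adjusted p = 2.4e-07), and the mannose receptor Mrc1 was at 10.7, 15.1 and 14.3 FPKM on day 4, against 1.998, 2.898 and 3.07 FPKM on day 3. Mrc1 rose by 1.97 ± 0.06 (SE, limma adjusted p = 4.3e-07). Further members that rose were the receptor Mertk (1.45), which serves the uptake of dying cells, and its ligand Gas6 (1.11), Emr1 (1.02), which encodes the F4/80 antigen, and the lysozyme Lyz2 (0.97), a near copy of Lyz1 (0.84) that may share its reads.

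Over the whole course these genes came back only in part. Lyz2, for example, was at 16659.6, 12236 and 16980.3 FPKM on day 0, 2506, 2715 and 2529.7 on day 2, 2709, 3087 and 2938 on day 3 and 5651, 5654 and 5808 on day 4 in mice 481, 528 and 532. C1qb was at 1349, 1799 and 1852 FPKM on day 0 and 27.5, 50.9 and 36.6 on day 2. The KO mean was lowest on day 2 for 19 of the 29 genes and on day 3 for the other 10, all 29 were higher on day 4 than on day 2, and 26 were still lower on day 4 than on day 0.

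**Figure D3:**
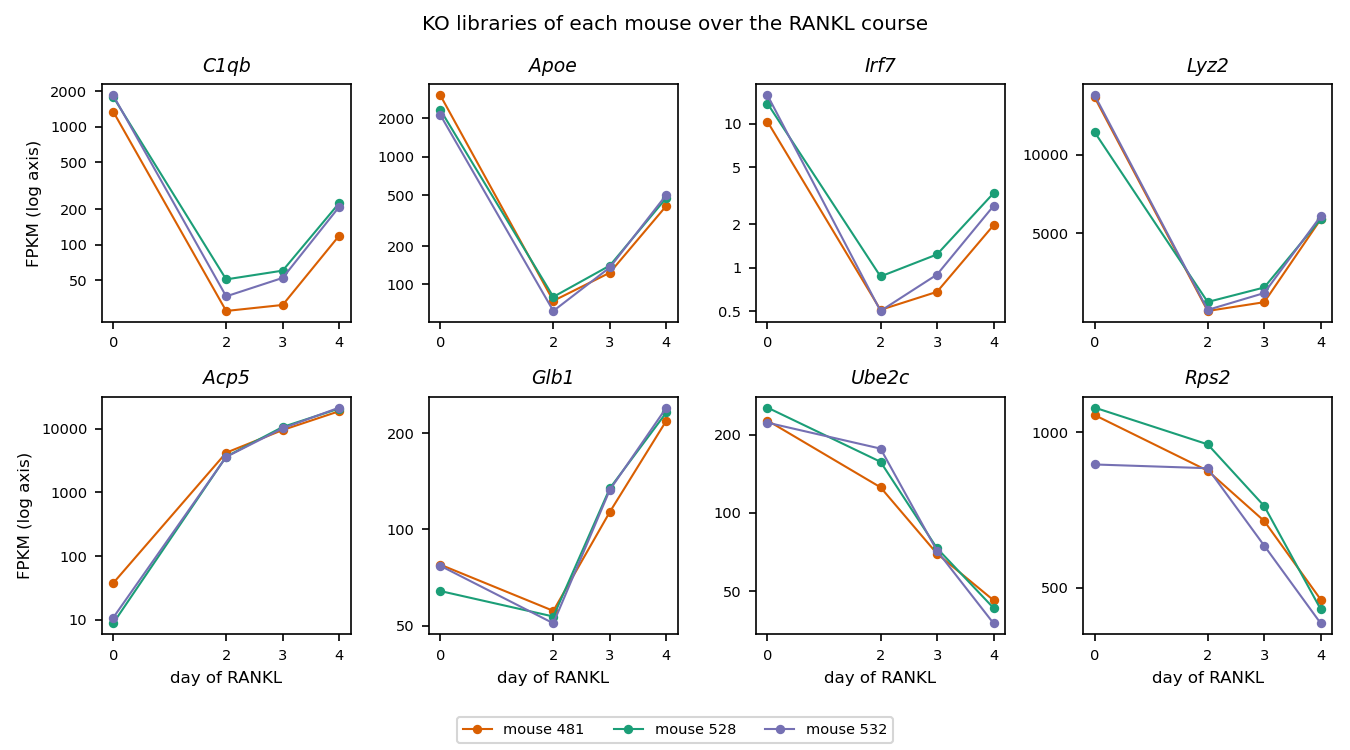
FPKM on a log axis against the day of RANKL (0, 2, 3 and 4) for 8 genes, 1 line for each KO mouse. C1qb, Apoe, Irf7 and Lyz2 drop between days 0 and 2 and are higher again on day 4 in each mouse, Acp5 and Glb1 are highest on day 4, and Ube2c and Rps2 decline through days 2, 3 and 4.

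Antigen presentation genes took the same direction. Of 10 MHC class II genes, 7 rose and 1 fell, with a median of 0.61. H2-Aa, the class II alpha chain, was at 19.7, 20.7 and 20.1 FPKM on day 4, against 6.95, 6.22 and 4.95 FPKM on day 3, a change of 1.60 ± 0.08 (SE, limma adjusted p = 4.7e-06). H2-Ab1, its beta chain, was at 13.2, 14.9 and 14.9 FPKM on day 4, against 6.08, 5.48 and 3.901 FPKM on day 3, a change of 1.33 ± 0.11 (SE, limma adjusted p = 4.6e-05), and Cd74, the invariant chain, was at 92.6, 106 and 110.1 FPKM on day 4, against 52.97, 50.8 and 43.5 FPKM on day 3. Cd74 rose by 1.05 ± 0.08 (SE, limma adjusted p = 3.7e-05). For all 3 the day 4 values were above all day 3 values, and the 10 genes were all lower on day 4 than on day 0. The costimulatory ligand Cd80 was the gene that fell (-0.46 ± 0.06). Of 12 listed dendritic cell markers 2 were high enough to test, and both rose. Itgax was at 8.15, 12.6 and 13.1 FPKM on day 4, against 3.66, 4.19 and 5.14 FPKM on day 3. Zbtb46 was at 1.83, 1.64 and 1.47 FPKM on day 4, against 1.02, 1.003 and 1.25 FPKM on day 3. The list summed to 11.2 to 15.7 FPKM on day 4 and 5.65 to 7.78 FPKM on day 3, most of it Itgax. The other 8 in the table had means under 1 FPKM and did not move as one. Among them Fscn1 and Ccr7 were lower on day 4 in every mouse, and Flt3, Irf4, Kmo and Cd209a were higher. A part of dendritic cells in the class II rise was not tested. Of 14 class I genes 8 rose (5 without the block, 2 in the fit of all libraries, 5 without mouse 481) and 0 fell (0 to 1 in the other fits), with a median of 0.24, including B2m (0.51) and the loading factor Tapbp (0.50); reads of H2 genes may be shared between near copies. Zbtb46 did not pass without mouse 481 or 528 (limma adjusted p = 0.067 to 0.099).

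The lysosome list rose nearly as a whole. Of 36 tested genes 33 rose and 0 fell, with a median of 0.40. Glb1, the lysosomal beta-galactosidase, was at 219, 232 and 240.2 FPKM on day 4, against 113, 135 and 133 FPKM on day 3. Glb1 rose by 0.86 ± 0.05 (SE, limma adjusted p = 6.9e-06). Hexa, a lysosomal glycosidase subunit, was at 1353, 1473 and 1441 FPKM on day 4, against 786, 909 and 856 FPKM on day 3. Both enzymes were higher in all 3 mice with no overlap, and Hexa rose by 0.74 ± 0.06 (SE, limma adjusted p = 4.1e-05). Ppt1, a palmitoyl thioesterase, rose by 0.68 ± 0.04, Naglu, which degrades heparan sulfate, by 0.66 ± 0.04, and the membrane protein Lamp1 by 0.49 ± 0.05. Ids, Galns and Smpd1 were the 3 that did not pass. In KO means, 32 of the 36 rose at each step through days 2, 3 and 4. Of the factors known to bind lysosomal promoters, Tfeb (0.12) did not pass, except without mouse 528 (0.21, limma adjusted p = 0.045), Tfe3 (0.13) rose slightly and Mitf fell, as given above. Without mouse 481 the change of Tfeb was 0.02. Tfe3 did not pass without the block, in the fit of all libraries, without the trend or without mouse 481, 528 or 532 (limma adjusted p = 0.058 to 0.25).

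The promoter of Glb1 is shown because it holds the letters TCACGTG, the E-box to which those factors bind. These are the 250 bases before the gene's start in RefSeq GRCm38.p6 (chr9:114400828-114401077, plus strand), with the E-box in capitals.
Glb1: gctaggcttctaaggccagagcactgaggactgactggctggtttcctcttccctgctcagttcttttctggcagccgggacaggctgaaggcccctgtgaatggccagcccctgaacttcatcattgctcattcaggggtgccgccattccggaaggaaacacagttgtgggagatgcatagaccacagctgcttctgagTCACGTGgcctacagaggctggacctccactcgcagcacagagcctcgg
Searched on both strands (TCACGTG and its complement CACGTGA), the 250 bases held these letters in 8 of 29 lysosome genes with a RefSeq promoter (27.6%), in 5.98% of 7642 tested genes and in 3.58% of all 27025 genes. A match is a description of the sequence.

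Cathepsins and matrix proteases followed: of 19, 17 rose (10 in the fit of all libraries) and 0 fell, with a median of 0.65. Mmp12, the macrophage elastase, was at 24.6, 28.2 and 27.8 FPKM on day 4, against 10.4, 12.8 and 14.8 FPKM on day 3, a change of 1.04 ± 0.06 (SE, limma adjusted p = 1.1e-05). Timp2, an inhibitor of metalloproteases, was at 194, 179 and 193 FPKM on day 4, against 111, 102 and 114 FPKM on day 3. Timp2 rose by 0.79 ± 0.04 (SE, limma adjusted p = 5.9e-06). Inhibitor and proteases thus rose together. The lysosomal cathepsins Ctsd (0.77), Ctss (0.65) and Ctsb (0.54) rose. Mmp8, also listed as a neutrophil marker, rose (0.96) and Mpo (-0.47) fell. Of 8 tested neutrophil markers 1 rose (5 without mouse 481) and 1 fell (0 to 1 in the other fits), and their median change was -0.29 in mouse 481, 0.25 in mouse 528 and 0.24 in mouse 532. Ctss did not pass in the fit of all libraries (limma adjusted p = 0.054). Mpo did not pass without the block or in the fit of all libraries (limma adjusted p = 0.092 to 0.15).

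Acid secretion genes rose by smaller amounts. Among 18 subunits of the vacuolar proton pump, 9 rose (5 in the fit of all libraries, 4 without mouse 481, 5 without mouse 532) and 1 fell (0 in the other fits) with a median of 0.17, and among 17 genes of ion transport 10 rose (4 in the fit of all libraries, 6 without mouse 481) and 2 fell (0 to 3 in the other fits). Tcirg1, the a3 subunit of the osteoclast's pump, was at 1017, 1047 and 1008 FPKM on day 4, against 757, 799 and 764 FPKM on day 3. Tcirg1 rose by 0.41 ± 0.06 (SE, limma adjusted p = 0.00058). Clcn7, the chloride and proton exchanger of the ruffled border, was at 308, 324 and 337 FPKM on day 4, against 218, 227 and 255 FPKM on day 3, a change of 0.47 ± 0.05 (SE, limma adjusted p = 0.00011). Neither had overlapping groups. The a1 subunit Atp6v0a1 (0.83), at 18.5, 18.2 and 17.5 FPKM on day 4, against 8.55, 9.96 and 10.8 FPKM on day 3, had the largest change among the subunits, and Atp6ap1 (0.58) and Atp6v1e1 (0.51) also rose. Car2, the carbonic anhydrase that supplies protons, rose by 0.35 ± 0.05, and Ostm1, the partner of Clcn7, by 0.28 ± 0.04. The sodium pump chain Atp1b1 (-0.41) and the channel Clic4 (-0.20) fell. Car2 and Ostm1 did not pass in the fit of all libraries (limma adjusted p = 0.073 to 0.077). Atp1b1 did not pass without the block (limma adjusted p = 0.24). Clic4 did not pass without the block, in the fit of all libraries or without mouse 481 (limma adjusted p = 0.069 to 0.16).

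Signals that osteoclasts send to osteoblasts and vessels also rose: of 13, 11 rose (6 in the fit of all libraries) and 0 fell (0 to 1 in the other fits), with a median of 0.36. Cthrc1, a secreted collagen triple helix protein, was at 9.93, 13.6 and 11.9 FPKM on day 4, against 2.94, 3.69 and 4.15 FPKM on day 3. Cthrc1 rose by 1.48 ± 0.07 (SE, limma adjusted p = 4.2e-06). Igf1, the growth factor, was at 18.5, 22.8 and 22.9 FPKM on day 4, against 6.53, 9.81 and 9.48 FPKM on day 3. Igf1 rose by 1.23 ± 0.06 (SE, limma adjusted p = 3.9e-06). Both were higher in all 3 mice without overlap. Smaller rises were seen for complement C3 (0.75), Bmp2 (0.72), the ephrin gene Efnb2 (0.59), the chemokine Cxcl16 (0.60) and Pdgfb (0.35), while Lif (-0.19) did not pass, except without mouse 532 (-0.27, limma adjusted p = 0.044). Without mouse 481 the change of Lif was -0.04. C3, Cxcl16 and Pdgfb did not pass in the fit of all libraries (limma adjusted p = 0.057 to 0.32).

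Chemokines and cytokines were divided. Of 16 tested, 9 rose (5 in the fit of all libraries) and 3 fell (5 without mouse 528). Ccl6 was at 13.3, 25.3 and 20.2 FPKM on day 4, against 6.14, 10.1 and 8.397 FPKM on day 3, a change of 1.14 ± 0.06 (SE, limma adjusted p = 5.9e-06), and Ccl3, an inflammatory chemokine, was at 11.8, 15.1 and 12.3 FPKM on day 4, against 6.697, 7.51 and 7.38 FPKM on day 3, a change of 0.77 ± 0.06 (SE, limma adjusted p = 4.1e-05). Ccl9, a chemokine that osteoclasts make in quantity, went the other way at 544, 651 and 661 FPKM on day 4, against 799, 923 and 875 FPKM on day 3, a change of -0.49 ± 0.06 (SE, limma adjusted p = 0.00025), and so did the interleukin 1 antagonist Il1rn (-0.65) and Il10 (-0.83). The groups of these 5 genes did not overlap.

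Interferon-stimulated genes rose in the KO cultures. Of 59 listed genes 40 were high enough to test, 27 rose (11 in the fit of all libraries) and 1 fell, and the median was 0.33. Ifi27l2a was at 18.2, 35.3 and 24.4 FPKM on day 4, against 5.84, 15.3 and 10.97 FPKM on day 3, a change of 1.24 ± 0.08 (SE, limma adjusted p = 1.1e-05); reads may be shared with near copies of this gene. Irf7, the factor that amplifies interferon induction, was at 1.98, 3.3003 and 2.69 FPKM on day 4, against 0.681, 1.24 and 0.897 FPKM on day 3. Irf7 rose by 0.91 ± 0.08 (SE, limma adjusted p = 5.2e-05). In both genes mouse 481 was the lowest on either day and the groups did not overlap. Irf7 passed the filter through day 4 alone, with KO means of 2.66 FPKM on day 4 and 0.939 FPKM on day 3. Its direction was thus set by the filter, as for any other member kept in that way. Irf9, which completes the ISGF3 complex, was at 6.399, 7.18 and 6.71 FPKM on day 4, against 3.53, 4.81 and 4.24 FPKM on day 3. Irf9 rose by 0.59 ± 0.07 (SE, limma adjusted p = 0.00022). The nuclear body gene Sp100 (0.69) and the antiviral genes Oas2 (0.53) and Oas3 (0.57) rose as well, and so did Isg15 (0.54), whose groups overlapped and whose change was 0.23 without mouse 532. Most of these levels were low, and 32 of the 40 genes were lower on day 4 than on day 0: Irf7 stood at 10.4, 13.9 and 15.8 FPKM on day 0. Gbp3, a guanylate-binding protein gene at 0.997, 1.74 and 1.298 FPKM on day 4, against 1.997, 2.25 and 2.298 FPKM on day 3, was the member that fell (-0.45 ± 0.09). Oas2 did not pass in the fit of all libraries (limma adjusted p = 0.075). Isg15 did not pass without the block, in the fit of all libraries or without mouse 532 (limma adjusted p = 0.059 to 0.087).

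The promoters of Oas3, which rose, and Gbp3, which fell, are shown because both hold the letters TTTCNNTTTC, the core to which the interferon-activated complex ISGF3 and the IRF factors bind. These are the 250 bases before each start in RefSeq GRCm38.p6, Oas3 at chr5:120777660-120777909, minus strand and Gbp3 at chr3:142559794-142560043, plus strand, with the matches in capitals.
Oas3: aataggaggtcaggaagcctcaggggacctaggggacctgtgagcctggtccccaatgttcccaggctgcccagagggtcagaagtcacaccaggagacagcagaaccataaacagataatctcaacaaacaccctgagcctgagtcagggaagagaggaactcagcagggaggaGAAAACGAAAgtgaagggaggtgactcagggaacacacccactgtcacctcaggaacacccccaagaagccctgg
Gbp3: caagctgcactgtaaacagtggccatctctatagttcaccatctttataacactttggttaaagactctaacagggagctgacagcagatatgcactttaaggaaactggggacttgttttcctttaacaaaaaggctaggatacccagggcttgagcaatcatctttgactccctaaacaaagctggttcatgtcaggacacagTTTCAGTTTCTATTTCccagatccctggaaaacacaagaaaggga
Searched on both strands, the letters were in 12 of 31 interferon-stimulated genes with a RefSeq promoter (38.7%), against 3.10% of 7642 tested genes and 3.46% of all 27025 genes. In Gbp3 overlapping matches run together. The transcript starts used for Oas3 and Gbp3 lie within the RefSeq gene spans.

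Genes of the cytosolic DNA sensing route around STING showed no common direction: of 16, 4 rose (2 in the fit of all libraries) and 5 fell (3 without the block, 0 in the fit of all libraries, 3 without mouse 481, 2 without mouse 528, 3 without mouse 532). Irf3, its transcription factor, was at 25.5, 25.3 and 25.9 FPKM on day 4, against 28.7, 31.2 and 28.7 FPKM on day 3, a change of -0.20 ± 0.05 (SE, limma adjusted p = 0.0090). Tbk1, the kinase between STING and IRF3, was at 28.6, 28.7 and 30.6 FPKM on day 4, against 28.6, 26.7 and 28.6 FPKM on day 3, and its change of 0.07 ± 0.04 (SE, limma adjusted p = 0.25) did not pass. The related kinase Ikbke, at 4.81, 5.89 and 6.31 FPKM on day 4, against 3.07, 4.03 and 3.24 FPKM on day 3, rose by 0.59 ± 0.08, and the DNA sensor family member Ifi204 by 0.83 ± 0.09. Samhd1 (0.24) rose and cGAS, listed as E330016A19Rik (-0.23), fell. The exonuclease Trex1 (-0.08) did not pass. Irf3 and Samhd1 did not pass in the fit of all libraries (limma adjusted p = 0.097 to 0.15). E330016A19Rik did not pass without the block, in the fit of all libraries or without mouse 481, 528 or 532 (limma adjusted p = 0.053 to 0.11).

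Cell division genes fell without exception among those tested for mitosis. All 38 of 38 fell, with a median of -0.43. Aurka, the Aurora A kinase of the spindle poles, was at 16.3, 14.9 and 13.3 FPKM on day 4, against 25.8, 28.5 and 24.6 FPKM on day 3. Aurka fell by 0.79 ± 0.06 (SE, limma adjusted p = 2.9e-05). Ube2c, which feeds the anaphase-promoting complex, was at 46.1, 43.02 and 37.6 FPKM on day 4, against 69.6, 73.03 and 71.4 FPKM on day 3. Ube2c fell by 0.75 ± 0.06 (SE, limma adjusted p = 4.0e-05). Mybl2, which activates G2 genes, was at 3.204, 2.62 and 2.14 FPKM on day 4, against 6.18, 5.52 and 4.67 FPKM on day 3, a change of -0.82 ± 0.07 (SE, limma adjusted p = 3.5e-05). Each was lower on day 4 in all 3 mice with no overlap. Of 39 replication and nucleotide genes 37 fell (20 in the fit of all libraries) and 1 rose, with a median of -0.35. Rrm2, the regulated subunit of ribonucleotide reductase, was at 21.7, 19.5 and 18.5 FPKM on day 4, against 37.3, 34.8 and 33.4 FPKM on day 3, a change of -0.79 ± 0.04 (SE, limma adjusted p = 7.2e-06), and the helicase subunits Mcm5 (-0.54) and Mcm6 (-0.53) fell. The riser was Chaf1b, a histone chaperone subunit, at 37.5, 39.8 and 43.1 FPKM on day 4, against 30.3, 32.8 and 34.9 FPKM on day 3. Chaf1b rose by 0.29 ± 0.04 (SE, limma adjusted p = 0.00063). In KO means all 38 mitosis genes and 38 of the 39 replication genes declined through days 2, 3 and 4. The median change of the mitosis genes was -0.29 in mouse 481, -0.49 in mouse 528 and -0.58 in mouse 532. Chaf1b did not pass in the fit of all libraries (limma adjusted p = 0.13).

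Among 19 genes that restrain the cell cycle 9 rose (4 in the fit of all libraries) and 2 fell (0 to 2 in the other fits). The p53 targets Sesn1, at 25.03, 26.1 and 24.6 FPKM on day 4, against 14.3, 15.3 and 15.2 FPKM on day 3, and Trp53inp1, at 33.3, 36.9 and 40.2 FPKM on day 4, against 21.6, 20.2 and 23.8 FPKM on day 3, had changes of 0.72 ± 0.05 and 0.72 ± 0.05. The CDK inhibitors did not move as one: Cdkn1a (-0.18) fell, Cdkn1b (0.10) did not pass, and Cdkn2b (0.25) and Cdkn2c (0.28) rose. Cdkn1a and Cdkn2c did not pass in the fit of all libraries (limma adjusted p = 0.11 to 0.28). Cdkn2b did not pass without the block, in the fit of all libraries or without mouse 481 (limma adjusted p = 0.057 to 0.20).

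The promoter of Aurka is shown because it holds the CCAAT box typical of G2 and M phase genes. The 250 bases before the start in RefSeq GRCm38.p6 (chr2:172370571-172370820, minus strand) carry it at the places in capitals. The transcript start used lies within the RefSeq gene span, which begins farther upstream.
Aurka: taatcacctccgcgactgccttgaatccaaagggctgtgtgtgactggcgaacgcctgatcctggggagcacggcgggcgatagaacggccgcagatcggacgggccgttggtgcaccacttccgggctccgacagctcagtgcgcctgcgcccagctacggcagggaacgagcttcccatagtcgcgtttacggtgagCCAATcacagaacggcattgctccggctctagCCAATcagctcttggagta
On either strand CCAAT was in 25 of 32 mitosis genes with a RefSeq promoter (78.1%), against 40.9% of 7642 tested genes and 37.5% of all 27025 genes.

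Genes for making and clearing protein fell alongside. All 33 of 33 tested cytosolic ribosomal protein genes fell, with a median of -0.39. Rps2 was at 475, 455 and 427 FPKM on day 4, against 674, 720.3 and 604 FPKM on day 3, a change of -0.55 ± 0.06 (SE, limma adjusted p = 0.00012), and Rps6, the S6 kinase substrate, was at 189.7, 190.4 and 190.1 FPKM on day 4, against 263, 277 and 247 FPKM on day 3. Rps6 fell by 0.46 ± 0.05 (SE, limma adjusted p = 0.00014). Neither had overlapping groups, and all 33 declined through days 2, 3 and 4 in KO means; reads of these genes may be shared with processed pseudogenes. Of 28 proteasome genes 27 fell (16 in the fit of all libraries) and 1 rose (0 to 1 in the other fits), with a median of -0.28, led by the core subunit Psmb7, at 217, 206 and 188 FPKM on day 4, against 315, 325 and 276 FPKM on day 3, a change of -0.58 ± 0.05 (SE, limma adjusted p = 4.0e-05). Psmd8 was the gene that rose (0.21 ± 0.05). Of 20 aminoacyl-tRNA synthetase genes 19 fell (9 in the fit of all libraries) and 0 rose, with a median of -0.28; Kars, the lysine enzyme, was at 58.6, 57.4 and 56.1 FPKM on day 4, against 78.6, 81.6 and 74.01 FPKM on day 3. Kars fell by 0.44 ± 0.04 (SE, limma adjusted p = 9.8e-05). Of 17 chaperone genes of the endoplasmic reticulum 10 fell (0 in the fit of all libraries), among them Manf (-0.43), Sdf2l1 (-0.32) and Hspa5 (-0.22), and 4 rose (0 in the fit of all libraries), among them Dnajb9 (0.37) and Herpud1 (0.41). Psmd8 and Hspa5 did not pass in the fit of all libraries or without mouse 481 (limma adjusted p = 0.087 to 0.26). Manf, Sdf2l1, Dnajb9 and Herpud1 did not pass in the fit of all libraries (limma adjusted p = 0.056 to 0.18).

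**Figure D4:**
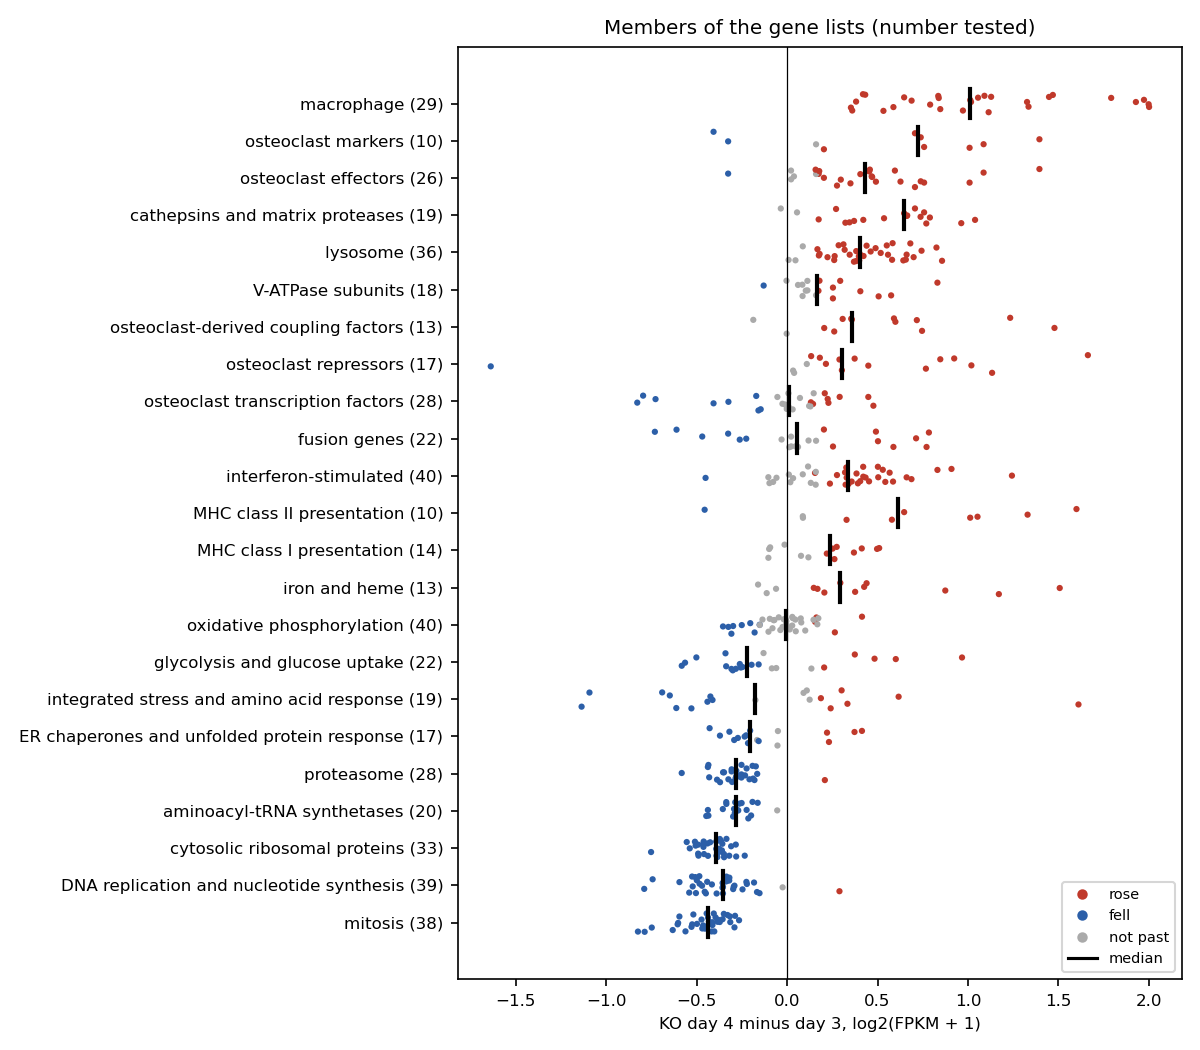
Change from day 3 to day 4 in KO on the log2(FPKM + 1) scale for each tested member of 23 gene lists, 1 point per gene, with the list's median as a black bar and the number tested in brackets. All 29 macrophage genes lie right of 0, all 38 mitosis genes and all 33 ribosomal protein genes lie left of 0, and the transcription factor, fusion and oxidative phosphorylation lists straddle it.

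Genes of the integrated stress and amino acid response moved both ways. Of 19 tested 6 rose and 9 fell (3 in the fit of all libraries). The serine synthesis enzymes were lower on day 4, Psat1 at 18.99, 12.02 and 10.3 FPKM on day 4, against 33.99, 28.3 and 26.7 FPKM on day 3 and Phgdh at 0.4203, 0.4595 and 0.113 FPKM on day 4, against 2.18, 1.84 and 1.704 FPKM on day 3, with changes of -1.09 ± 0.08 (SE, limma adjusted p = 3.1e-05) and -1.14 ± 0.09. Asns, asparagine synthetase, was at 40.5, 28.7 and 30.6 FPKM on day 4, against 52.1, 51.1 and 53.03 FPKM on day 3. Asns fell by 0.65 ± 0.08 (SE, limma adjusted p = 0.00036). On day 4 mouse 481 was the highest of the 3 for Psat1 and Asns. Phgdh passed the filter through day 3 alone, so its direction was set by the filter. Among the members that rose, the stress factor Atf3 was at 13.3, 15.9 and 12.1 FPKM on day 4, against 3.58, 4.07 and 3.76 FPKM on day 3, a change of 1.61 ± 0.07 (SE, limma adjusted p = 2.1e-06), and Nupr1 (0.62) and the phosphatase subunit Ppp1r15a (0.33) rose. Without mouse 481 the change of Nupr1 was 0.40. The list's median differed between mice, 0.17 in mouse 481, -0.29 in mouse 528 and -0.44 in mouse 532. Asns did not pass in the fit of all libraries (limma adjusted p = 0.14).

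The promoters of Asns and Atf3 are shown because both hold TGATGNAA, the core of the amino acid response element read by ATF4, and the genes moved in opposite directions. The 250 bases before each start are from RefSeq GRCm38.p6, Asns at chr6:7693210-7693459, minus strand and Atf3 at chr1:191183334-191183583, minus strand, with the match in capitals, which in Atf3 is on the other strand.
Asns: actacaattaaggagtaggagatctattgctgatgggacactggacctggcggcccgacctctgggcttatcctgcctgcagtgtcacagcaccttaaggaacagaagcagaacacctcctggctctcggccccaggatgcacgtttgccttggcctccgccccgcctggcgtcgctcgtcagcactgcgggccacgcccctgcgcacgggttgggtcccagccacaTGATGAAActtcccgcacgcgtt
Atf3: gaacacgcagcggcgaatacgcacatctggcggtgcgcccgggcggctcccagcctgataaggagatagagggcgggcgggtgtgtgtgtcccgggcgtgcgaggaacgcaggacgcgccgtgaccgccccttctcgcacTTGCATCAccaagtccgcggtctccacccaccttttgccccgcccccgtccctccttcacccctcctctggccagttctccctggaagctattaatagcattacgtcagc
The letters were on either strand in 4 of 18 genes of the list with a RefSeq promoter (22.2%), against 2.51% of 7642 tested genes and 3.91% of all 27025 genes.

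Energy genes were measured in lists for glycolysis, the respiratory chain, the citrate cycle and hypoxia. Of 22 glycolysis genes 13 fell (7 in the fit of all libraries) and 5 rose (3 in the fit of all libraries), with a median of -0.22. Gapdh, a glycolytic enzyme often used as a control gene, was at 297, 278 and 272 FPKM on day 4, against 423, 434 and 413 FPKM on day 3, a change of -0.58 ± 0.05 (SE, limma adjusted p = 4.9e-05). Ldhb, the heart-type lactate dehydrogenase subunit, was at 249.9, 298 and 262 FPKM on day 4, against 128, 159 and 127 FPKM on day 3, a change of 0.97 ± 0.05 (SE, limma adjusted p = 3.8e-06), while the muscle-type subunit Ldha was at 532, 484 and 445 FPKM on day 4, against 648, 645 and 553 FPKM on day 3. Ldha fell by 0.34 ± 0.05 (SE, limma adjusted p = 0.0011). These subunits moved in opposite directions in all 3 mice. Pdk1, a kinase that inhibits pyruvate dehydrogenase, rose by 0.60 ± 0.04. Of 40 respiratory chain genes, with a median of -0.01, 4 rose (2 without the block, 2 in the fit of all libraries, 2 without mouse 481, 11 without mouse 528, 2 without mouse 532). On the other side 8 fell (5 without the block, 2 in the fit of all libraries, 4 without mouse 481), the cytochrome c gene Cycs (-0.32) among them. Of 24 citrate cycle and mitochondrial genes 5 rose (2 without the block, 1 in the fit of all libraries, 0 without mouse 481, 0 without mouse 532). In the same list 9 fell (4 without the block, 1 in the fit of all libraries, 5 without mouse 481, 4 without mouse 532), including Idh3a (-0.44) and the coactivator Ppargc1b (-0.32). Of 14 hypoxia response genes 6 rose, Ndrg1 (0.68) and Bnip3 (0.42) among them, and 2 fell (1 to 2 in the other fits). Idh3a and Bnip3 did not pass in the fit of all libraries (limma adjusted p = 0.070 to 0.096).

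Of 21 fatty acid genes 11 rose (7 in the fit of all libraries, 7 without mouse 481) and 4 fell (2 without the block, 2 in the fit of all libraries, 2 without mouse 481). Fabp4, a fatty acid binding protein, was at 8.66, 10.6 and 4.53 FPKM on day 4, against 1.87, 2.54 and 0.873 FPKM on day 3, a change of 1.68 ± 0.07 (SE, limma adjusted p = 2.1e-06), and its relative Fabp5 at 71.7, 83.9 and 64.01 FPKM on day 4, against 42.1, 41.4 and 31.2 FPKM on day 3. Fabp5 rose by 0.92 ± 0.06 (SE, limma adjusted p = 1.1e-05). Mouse 532 was the lowest for both genes on both days, and the groups did not overlap. The cholesterol exporter Abca1, at 5.08, 7.13 and 7.02 FPKM on day 4, against 2.51, 2.76 and 3.95 FPKM on day 3, rose by 0.87 ± 0.09. The fatty acid synthesis enzymes Fasn (-0.26), Scd2 (-0.42) and Elovl6 (-0.38) fell, and of 25 cholesterol genes 9 rose and 1 fell. Fasn did not pass in the fit of all libraries or without mouse 481 (limma adjusted p = 0.065 to 0.076). Scd2 did not pass without the block (limma adjusted p = 0.073).

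Iron genes rose: of 13, 10 rose (6 in the fit of all libraries) and 0 fell (0 to 1 in the other fits), with a median of 0.29. Steap4, a metalloreductase, was at 82.8, 89.1 and 79.7 FPKM on day 4, against 27.7, 30.04 and 28.8 FPKM on day 3, a change of 1.51 ± 0.04 (SE, limma adjusted p = 3.3e-07). Tfrc, the transferrin receptor, was at 509.7, 566 and 592 FPKM on day 4, against 309.6, 287 and 310.3 FPKM on day 3, a change of 0.87 ± 0.06 (SE, limma adjusted p = 2.0e-05), and Slc40a1, the exporter ferroportin, was at 9.59, 17.3 and 16.9 FPKM on day 4, against 4.25, 6.86 and 6.35 FPKM on day 3. Slc40a1 rose by 1.17 ± 0.07 (SE, limma adjusted p = 7.9e-06). Importer and exporter thus both rose in every mouse. Steap4 had a KO mean of 3.43 FPKM on day 2 and 0.0777 FPKM on day 0.

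Stress and survival genes showed no common direction. Of 21 oxidative stress genes 6 rose (3 in the fit of all libraries) and 7 fell (3 in the fit of all libraries), with the factor Nfe2l2 (0.30) and Gstm1 (0.51) higher and the metallothionein Mt2 (-0.65) and the thioredoxin Txn1 (-0.42) lower. Of 24 apoptosis genes 8 rose (5 in the fit of all libraries) and 5 fell (2 without the block, 2 in the fit of all libraries, 2 without mouse 481, 2 without mouse 532). Pmaip1, the BH3-only protein Noxa, was at 37.9, 49.02 and 45.8 FPKM on day 4, against 20.9, 26.8 and 25.6 FPKM on day 3, a change of 0.83 ± 0.04 (SE, limma adjusted p = 4.7e-06), and Bak1, a pore-forming effector, was at 62.6, 64.8 and 69.98 FPKM on day 4, against 90.3, 93.4 and 103 FPKM on day 3. Bak1 fell by 0.53 ± 0.04 (SE, limma adjusted p = 2.8e-05). The survival genes Bcl2l1 (0.54) and Mcl1 (0.33) rose. Of 20 immediate early genes 7 rose (2 in the fit of all libraries, 4 without mouse 532) and 8 fell (5 without the block, 4 in the fit of all libraries, 5 without the trend). Egr1 was at 0.309, 0.8799 and 0.707 FPKM on day 4, against 18.03, 2.07 and 1.17 FPKM on day 3, a change of -1.64 ± 0.55 (SE, limma adjusted p = 0.035), and its day 3 value in mouse 481 stands far above the others. Its change was -0.53 (limma adjusted p = 0.010) without mouse 481, and that of Ier2 was -0.14 without mouse 481 and -0.60 without mouse 532. Fos, Ier2 and Zfp36 were also highest in that library, Ier2 at 22.6, 22.2 and 22.8 FPKM on day 4, against 42.1, 28.3 and 21.8 FPKM on day 3 and Zfp36 at 44.6, 44.6 and 47.6 FPKM on day 4, against 73.1, 41.3 and 45.8 FPKM on day 3. Egr1 did not pass without the block, in the fit of all libraries or without the trend (limma adjusted p = 0.067 to 0.093). Ier2 did not pass without the block, in the fit of all libraries, without the trend or without mouse 481 or 528 (limma adjusted p = 0.084 to 0.26).

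Of the 10 largest rises by the rule for named genes, those not yet described were a mixed group. Sepp1, which encodes the selenium carrier selenoprotein P, was at 93.9, 137 and 135 FPKM on day 4, against 20.7, 26.96 and 25.6 FPKM on day 3, a change of 2.26 ± 0.05 (SE, limma adjusted p = 1.7e-07). Msln, the surface protein mesothelin, was at 31.9, 54.6 and 54.3 FPKM on day 4, against 9.24, 15.5 and 14.9 FPKM on day 3. Msln rose by 1.74 ± 0.05 (SE, limma adjusted p = 2.4e-07). The membrane genes Tmem176a, at 16.6, 26.7 and 25.99 FPKM on day 4, against 3.34, 5.81 and 5.08 FPKM on day 3, and Tmem176b, at 36.2, 56.5 and 55.1 FPKM on day 4, against 9.28, 12.8 and 12.8 FPKM on day 3, rose by 2.06 ± 0.06 and 1.98 ± 0.05. These 2 genes overlap on mouse chromosome 6, and whether the counting used strand is not given, so their values cannot be separated. Mir221, whose gene model is a microRNA hairpin, was listed at 33.3, 32.1 and 67.3 FPKM on day 4 and at 0 in all 3 KO day 3 libraries, but the WT libraries had 0, 62.2 and 31.8 FPKM on day 4 and 87.9, 58.4 and 42.6 on day 3. No fold is given for it, and a model this short is poorly measured in a library of long RNA.

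The 10 largest falls by the same rule held Egr1, whose change without mouse 481 was -0.53, and genes outside the lists. Ltbp1, which tethers latent TGF beta to the matrix, was at 0.898, 0.591 and 0.438 FPKM on day 4, against 4.97, 2.99 and 3.11 FPKM on day 3. Ltbp1 fell by 1.50 ± 0.09 (SE, limma adjusted p = 9.7e-06). Mgst2, a microsomal glutathione transferase, was at 12.1, 11.2 and 9.68 FPKM on day 4, against 29.2, 30.8 and 26.99 FPKM on day 3, a change of -1.32 ± 0.05 (SE, limma adjusted p = 1.9e-06). Rgs16, which shortens G protein signals, was at 0.679, 0.529 and 0.443 FPKM on day 4, against 2.34, 2.38 and 2.37 FPKM on day 3. Rgs16 fell by 1.12 ± 0.09 (SE, limma adjusted p = 2.9e-05). Each was lower in all 3 mice with no overlap. The serotonin transporter Slc6a4 (-1.24), the protease inhibitor Serpinb1a (-1.23), Bcl2l15 (-1.36) and Cgref1 (-1.16) completed them, beside Phgdh and Psat1. Egr1, Ltbp1, Rgs16, Serpinb1a and Phgdh had day 4 means under 1 FPKM and passed the filter through day 3 alone. The direction of these genes was thus set by the filter. Single genes listed as markers of other lineages also moved. The platelet chemokine Pf4 was at 21.5, 40.3 and 28.7 FPKM on day 4, against 10.5, 22.6 and 18.1 FPKM on day 3. The other 5 erythroid and megakaryocyte markers in the table had means under 1 FPKM on both days, so Pf4 is not read as a sign of that lineage. The stromal gene Dcn was at 0.264, 0.737 and 0.748 FPKM on day 4, against 0.617, 1.29 and 1.31 FPKM on day 3. Pf4 rose by 0.80 ± 0.06 (SE, limma adjusted p = 3.5e-05). Dcn fell by 0.39 ± 0.08 (SE, limma adjusted p = 0.0054), but it passed the filter through day 3 alone. Pf4 did not pass without the block (limma adjusted p = 0.052). Dcn did not pass without the block or in the fit of all libraries (limma adjusted p = 0.12 to 0.15).

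The same step was then measured in WT cultures, whose mice 480, 529 and 531 share no library with KO. Across the 9457 genes the KO and WT changes had a Pearson correlation of 0.90, a description over genes that are not independent. Of the 4838 genes called in KO, 4809 (99.4%) had the same sign in WT, and of the 815 that changed by at least 0.5, 813 did. The test of the difference itself, KO step minus WT step in limma, called 0 of 9536 genes, 0%, and 147 (1.54%) had an unadjusted p under 0.05. Without WT mouse 480, 529 or 531 in turn the test called 2, 1 and 1 genes. These were the small RNA models Mir1945, Mir221 and Snord37, and Cep250, which was listed at 0 on day 3 in WT mice 480 and 529 and at 7.49 FPKM in mouse 531. In simulated data 200 genes, none of low level, were given a different step. Noise was drawn independently for each gene, with its spread pulled towards that of the median gene. There the test recovered 85.1% of genes whose steps differed by 0.5 and 5.97% of those that differed by 0.25. Differences of the smaller size were thus mostly below its reach even in that setting. The real libraries may vary otherwise, so these shares need not hold for them. The result does not show that the steps were equal.

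List medians gave the same picture with some distance between the genotypes. Macrophage genes had medians of 1.01 in KO and 0.99 in WT, osteoclast effectors 0.43 and 0.38, and lysosome genes 0.40 and 0.43. For interferon-stimulated genes the medians were 0.33 in KO and 0.48 in WT. By mouse these were 0.35, 0.35 and 0.28 in KO mice 481, 528 and 532, and 0.27, 0.48 and 0.59 in WT mice 480, 529 and 531. The mice of the genotypes overlapped, with WT mouse 480 the lowest of all. For mitosis genes the medians were -0.43 in KO and -0.59 in WT, and by mouse -0.29, -0.49 and -0.58 in KO against -0.57, -0.68 and -0.57 in WT. Here KO mouse 532 lay within the range of the WT mice. The WT change was above the KO change in 38 of 40 interferon-stimulated genes and 3 of 38 mitosis genes, against 4157 of all 9457 (44.0%). Genes of a list come from the same 3 mice of each genotype and are not replicates, so these counts are a description and do not test a genotype difference. None of the members of these 5 lists passed the test of the difference.

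The 5 genes with the smallest p for the difference, none of which passed, were Ifitm1, Mir221, Snhg12, Marco and Rgs1. Ifitm1, an interferon-induced membrane protein, was at 7.13, 14.3 and 10.9 FPKM on day 4 and 2.68, 4.595 and 4.04 FPKM on day 3 in KO, and at 11.4, 17.05 and 14.6 FPKM on day 4 and 1.99, 4.15 and 2.53 FPKM on day 3 in WT. It was higher on day 4 in both genotypes, with a KO minus WT difference of -0.73 ± 0.12 (SE, limma adjusted p = 0.9997). Marco, a scavenger receptor, was at 2.596, 3.795 and 1.75 FPKM on day 4 and 0.711, 1.06 and 0.4999 FPKM on day 3 in KO, and at 1.14, 1.27 and 1.95 FPKM on day 4 and 0.646, 0.621 and 1.07 FPKM on day 3 in WT, a KO minus WT difference of 0.60 ± 0.13 (SE, limma adjusted p = 0.9997). Differences were -0.49 ± 0.10 (SE, limma adjusted p = 0.9997) for the non-coding Snhg12 and 0.76 ± 0.16 (SE, limma adjusted p = 0.9997) for Rgs1, a regulator of G protein signals.

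**Figure D5:**
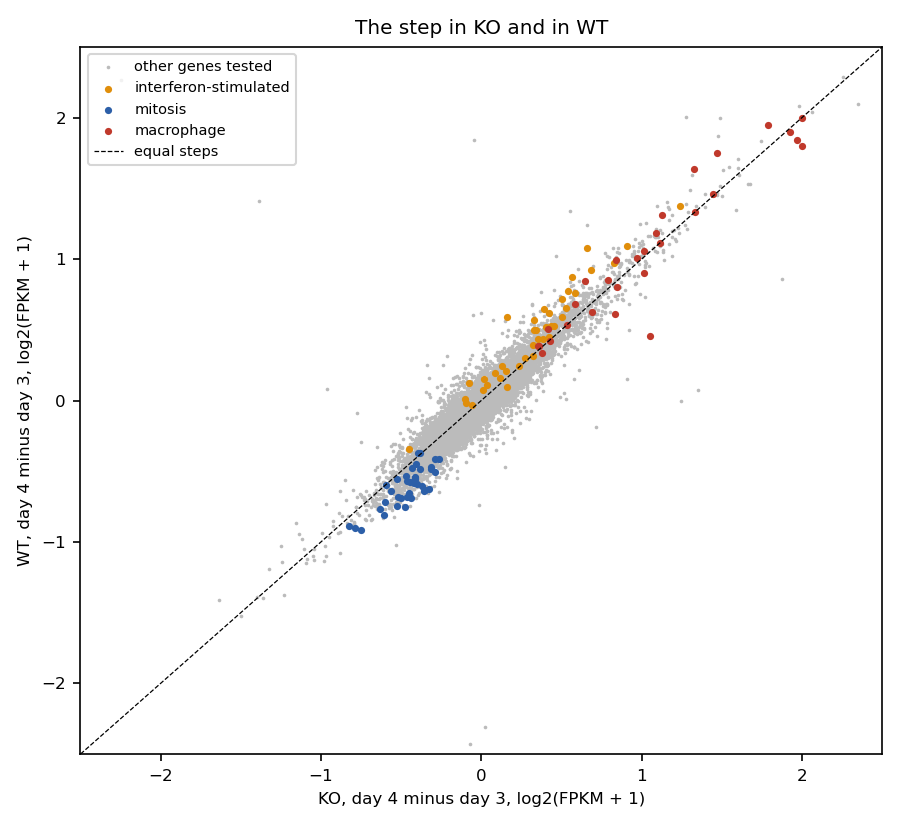
Change from day 3 to day 4 in KO (x axis) and in WT (y axis), both as log2(FPKM + 1), for the genes tested in KO, with macrophage genes in red, interferon-stimulated genes in orange, mitosis genes in blue and equal steps as a dashed line. Most genes lie along the line, with r = 0.90 across genes. Interferon-stimulated genes lie above the line in 38 of 40 cases and mitosis genes in 3 of 38, a description over genes of the same mice that are not replicates. Mir221, Gsn and 2 further genes fall outside the axes.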

How the data were processed

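Bulk RNA-seq of bone-marrow-derived cultures was deposited as 1 table of FPKM for 10721 genes in 24 libraries. Per the submitters' processing notes the authors used HISAT2 2.0.5, Cufflinks 2.2.1, Cuffdiff and the mouse build mm10 to make the FPKM values. Nothing used here states which tool did which step, the gene annotation or whether counting used strand. The table's name marks its genes as significant by a rule that is not given, so a share of genes called is a share of a preselected table and may be above that of all genes. Counts of fragments are not in the table, so depth is unknown and no counting interval is given. The number of mice limits the precision. The median SE of a change was 0.06 on the log2 scale for the KO step.

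Values were taken as log2(FPKM + 1), and genes with a mean of at least 1 FPKM in either KO group were kept (9457). limma 3.58.1 in R 4.3.3, with a mean-variance trend and the mouse as a block, tested day 4 minus day 3, two-sided, with Benjamini-Hochberg adjustment and a threshold of 0.05. The difference of the step between KO and WT was an interaction term over 12 libraries and 9536 genes. The labels give each mouse a library on both days, so the pairing was used. Deviations from the group means correlated at 0.36, 0.26 and 0.37 within mice 481, 528 and 532, and at -0.40 to 0.08 between different mice. The deviations of a gene cancel out within a day, so the values within and between mice are not independent of each other. In simulated data 200 of the 9457 genes, none of low level, were changed, with each gene's spread in the KO libraries pulled towards the median. The test of the step recovered 83.6% of genes changed by 0.25 and 100% of those changed by 0.5 or 1. In that setting 7.8% of its calls were false. That share depends on how many genes truly change, so it does not apply to the 4838 calls in the real data.

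The comparison, its members and the 44 gene lists were chosen with earlier results of these data known. Named by rule were the STING gene, the 10 largest rises and falls that had the same direction in all 3 mice, up to 3 called members of each list by smallest adjusted p, every osteoclast marker, and the 5 smallest p for the interaction. The other genes were named after their values were seen. A few genes are not reported here. Sequences are RefSeq promoters of GRCm38.p6; 99.3% of the table's symbols matched a RefSeq gene. Other pseudocounts, filters, scalings, blocks and sample sets were tried, and each mouse was left out in turn. Days 0 and 2 serve here as levels only.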

Additional observations from a re-analysis of the deposited data

How the results depend on the processing

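The count of genes called in the KO step was 4838, and it stayed within 1.5 times of that with a pseudocount of 0.1 (4833), no filter (4992), a filter of 5 FPKM (4081), median scaling (4842), no mean-variance trend (4656) and no replicate block (3316), and at 3607 to 4337 with 1 mouse left out. It was 2498 in a fit of all 24 libraries with the mouse block and 1839 in that fit without it; the cause was not tested. It was 815 with a change of at least 0.5 added to the rule, a choice made after seeing the data. Median scaling put 46.9% of calls on the rising side, against 50.3% as deposited. The limma interaction called 0 genes in the fit of all KO and WT libraries of days 3 and 4 and under every other alternative except leaving out a WT mouse, where it called 1 to 2 (0 to 2 over all mice left out); without the block it called 0. The unadjusted count of 147 ran from 29 to 312. With a filter of 5 FPKM, which drops low genes, 11 interferon-stimulated genes rose. Over the genes named and 11 alternatives for the KO step, 2082 of 2255 values kept direction and call, 160 lost the call, 7 gained one (Atp6v0d2, Actr3, Gsn, Lif and Tfeb) and 6 changed sign, the last only in genes that did not pass. With 1 mouse left out the changes of these ran from -4.05 to 0.0288 for Actr3, -0.135 to 0.0287 for Prdm1, -0.0317 to 0.0464 for Sfpi1, -0.0194 to 0.0441 for Tnfrsf11a and -0.324 to 0.0811 for Zfp36, and with median scaling Sfpi1 was at -0.00889.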
